A study of Mus musculus with 24 samples.

Results

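The genes described here are 57 named genes of the endoplasmic reticulum (ER), the compartment where secreted and membrane proteins enter, fold and are checked. They were taken by name, in 7 roles: folding enzymes with the protein disulfide isomerases (PDIs), chaperones with their co-chaperones, ER-associated degradation, the signal recognition particle with its receptor, the translocon with the translocon-associated protein (TRAP) complex, signal peptidase, and stress sensors with stress response factors. Of the 57, 56 had a row among the 11140 genes of the count table and all 56 passed the filter on low counts. Pdia5 had no row and was not analysed here. No value served as a rule for taking them, but they were named with earlier results of these data known.

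Lymphomas that arise in C57BL/6 mice carrying a Bcl6 transgene were compared by RNA sequencing of B lymphoma cells purified from spleen. In the T cell sufficient group (genotype Bcl6Tg/+, 12 libraries) the mice had T cells. In the T cell deficient group (genotype Bcl6Tg/+CD3Epsilon-/-, 11 libraries) the Bcl6 transgene was joined by loss of both copies of the CD3 epsilon gene, a part of the T cell receptor complex. Both groups thus carried the transgene, and there was no group without it. The sources used here do not give the promoter that drives it or the ages of the mice. The labels place the libraries in 2 batches, called runs here: run 1 held 7 sufficient and 5 deficient libraries, and run 2 held 5 and 6. The labels do not say that each library came from a separate mouse, so p-values measure the spread between these libraries.

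New secretory proteins are led to the ER by the signal recognition particle, pass through the Sec61 channel and lose their signal peptide to signal peptidase. Chaperones such as BiP (Hspa5) then hold them while PDIs form and rearrange their disulfide bonds, and chains that fail to fold are returned to the cytosol and degraded. When unfolded chains build up, the sensors IRE1 (Ern1), PERK (Eif2ak3) and ATF6 start the unfolded protein response, which slows translation and raises many of these genes. As B cells become plasma cells, the transcription factor XBP1 raises many of the folding and secretory genes among them.

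Total counts ran from 7.58 M to 30.6 M reads per sufficient library and from 11.8 M to 28.1 M per deficient library. Levels are CPM, counts divided by the library's total and scaled by the trimmed mean of M-values (TMM). Before the TMM scaling, 3 counts corresponded to 0.0980 to 0.396 CPM, depending on the library. Cd79a, a part of the B cell receptor, was above 0 in every library and had a median of 1353 CPM in the sufficient and 864 CPM in the deficient libraries. Cd3e itself had a median of 0.874 CPM in the sufficient and 1.82 CPM in the deficient libraries, so its level in these B cells did not check the genotype, and the groups rest on the labels. Sufficient libraries 9, 10 and 11 held both Xist and the Y-linked Ddx3y above 20 CPM, and counts are also given without them. The level of a gene in purified cells is a mean over the cells, and fewer cells of a type cannot be told apart from less RNA per cell.

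Between the groups, 0 of the 56 members rose and 6 fell in the T cell deficient lymphomas: Pdia4, Txndc5, Ero1lb, Creld2, Eif2ak3 and Sec62. In the same test (edgeR's quasi-likelihood test with the run as a term, adjusted p under 0.05 over 11020 genes) 10.6% of all genes rose and 11.7% fell, so the members' 10.7% falling was near the background and their 0 rising was below it. At an unadjusted p under 0.05 again 0 members were higher, against 1957 of all genes, and 9 were lower. DESeq2 and limma-voom also called 0 members higher. The members' median log2 fold change, deficient over sufficient, was -0.05, against -0.01 for all genes tested, and 39 of the 56 lay within 0.25 of 0. By sign alone, 20 were higher and 36 lower. Falling members were spread over 4 roles: 3 of 7 folding enzymes, 1 of 12 chaperones, 1 of 9 translocon and TRAP genes, and 1 of 7 stress genes. None of the 10 degradation genes, 6 signal recognition particle genes or 5 signal peptidase genes passed the test. The authors' deposited table had 5 members lower and 0 higher at a false discovery rate under 0.05 (backgrounds 11.7% and 11%): the same genes without Txndc5.

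**Figure D1:**
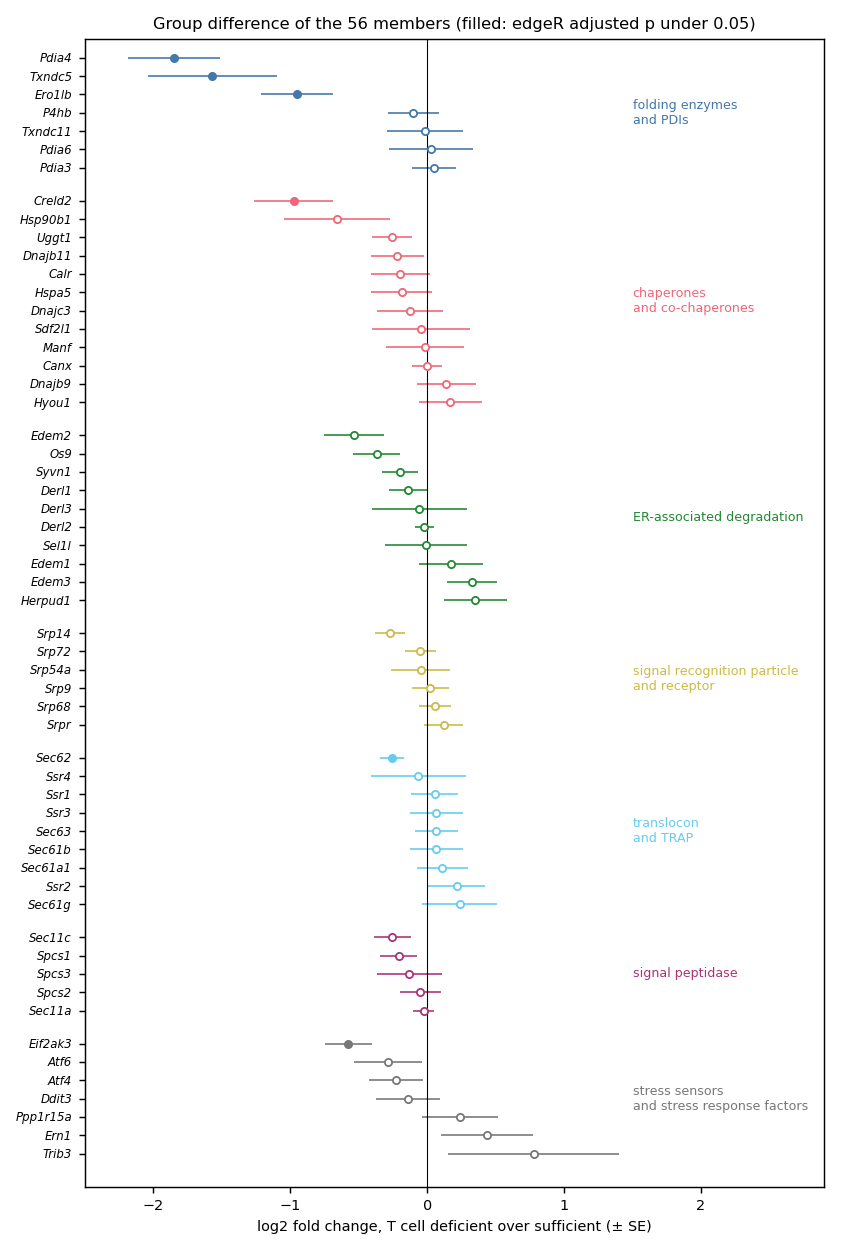
Group difference of each of the 56 members, by role: the x axis is the log2 fold change of T cell deficient over T cell sufficient lymphomas, points are edgeR estimates, bars are ± 1 SE, and filled points have an adjusted p under 0.05. The 6 filled points all lie left of 0, from Pdia4 at -1.85 to Sec62 at -0.26, and most open points lie within 0.25 of 0.

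Among the folding enzymes, Pdia4 had the lowest fold change and the smallest p-value of the 56 members. Pdia4 encodes a PDI of the ER lumen, and the gene lies at chr6:47796141-47813430 (GRCm38, minus strand). In the sufficient libraries its level was 377.5 CPM at the lowest, 778 at the median and 2055 at the highest, with a mean of 836 ± 440 (SD, n = 12). In the deficient libraries it was 41.0 at the lowest, 189 at the median and 587 at the highest, with a mean of 235 ± 152 (SD, n = 11). The groups nearly separated: 9 of the 11 deficient libraries were below every sufficient library, and all 11 were below the sufficient median. The log2 fold change was -1.85 ± 0.34 (SE, edgeR adjusted p = 0.00101), a level 3.60-fold higher in the sufficient lymphomas. In run 1 the sufficient and deficient means were 814 ± 571 CPM (SD, n = 7) and 318 ± 177 (SD, n = 5), and in run 2 they were 866 ± 202 (SD, n = 5) and 166 ± 92.8 (SD, n = 6). Tested in each run alone, the log2 fold change was -1.37 in run 1 (edgeR adjusted p = 0.19) and -2.38 in run 2 (edgeR adjusted p = 0.00818).

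Ero1lb encodes an ER oxidase that passes oxidising power to the PDIs. Its level ran from 98.7 CPM through a median of 244 to 734 in the sufficient libraries and from 96.7 through 141 to 334 in the deficient libraries. Low sufficient libraries overlapped the deficient ones, while 10 of 11 deficient libraries were below the sufficient median. Means were 293 ± 200 CPM (SD, n = 12) and 157 ± 66.3 (SD, n = 11), with a log2 fold change of -0.95 ± 0.26 (SE, edgeR adjusted p = 0.0139). Its 4 highest libraries were sufficient 8, 12, 10 and 7, and 3 of these 4 were also among the 4 highest for Pdia4. Without the run term Ero1lb no longer passed (log2 fold change -0.90, edgeR adjusted p = 0.0562).

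Txndc5, another PDI family member, is abundant in plasma cells. Its sufficient libraries ran from 475 CPM through a median of 814 to 9236, and its deficient libraries from 344 through 545 to 914. Sufficient 4, at 9236 CPM, and sufficient 11, at 4944, stood far above the rest, and the third-highest sufficient library was at 1605. The mean was therefore 1879 ± 2620 CPM (SD, n = 12) against 610 ± 168 (SD, n = 11), and the log2 fold change was -1.57 ± 0.47 (SE, edgeR adjusted p = 0.0213). Without sufficient 4 it was -0.97 (edgeR adjusted p = 0.0521), and without sufficient 11 it was -1.05 (edgeR adjusted p = 0.0934). With limma-voom it was -0.88 (adjusted p = 0.115). The call for Txndc5 thus rested on 2 libraries. These were also the sufficient libraries with the most Xbp1 (890 and 577 CPM), Prdm1 (230 and 148) and Sdc1 (86.7 and 70.8), which are plasma cell genes. Other plasma cell genes did not all follow. Mzb1 was at 2165 CPM in sufficient 4 and 918 in sufficient 11, and was highest in sufficient 7 (2310). Irf4 was highest in sufficient 4 (684 CPM), but sufficient 11 (446) lay below sufficient 5 (655) and sufficient 2 (540).

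The other 4 folding enzymes had group means close to each other. Pdia3, the PDI that works with calnexin and calreticulin, averaged 1018 ± 397 CPM (SD, n = 12) and 1005 ± 259 (SD, n = 11), and its log2 fold change was 0.05 ± 0.16 (SE). P4hb, the classical PDI, was at -0.10 ± 0.19, Pdia6 at 0.03 ± 0.31 and Txndc11 at -0.02 ± 0.28, each as log2 fold change ± SE. None of the 4 passed the test (edgeR adjusted p from 0.727 to 0.975). Compared per kilobase of merged exons, Pdia4 ranked 2 of 55 members by sufficient median (324 CPM per kb), between Calr (334) and Hspa5 (306). In the deficient libraries Pdia4 ranked 13 at 78.9 CPM per kb, while Calr (320), Pdia3 (309), Hspa5 (234) and Hsp90b1 (207) held ranks 1 to 4.

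**Figure D2:**
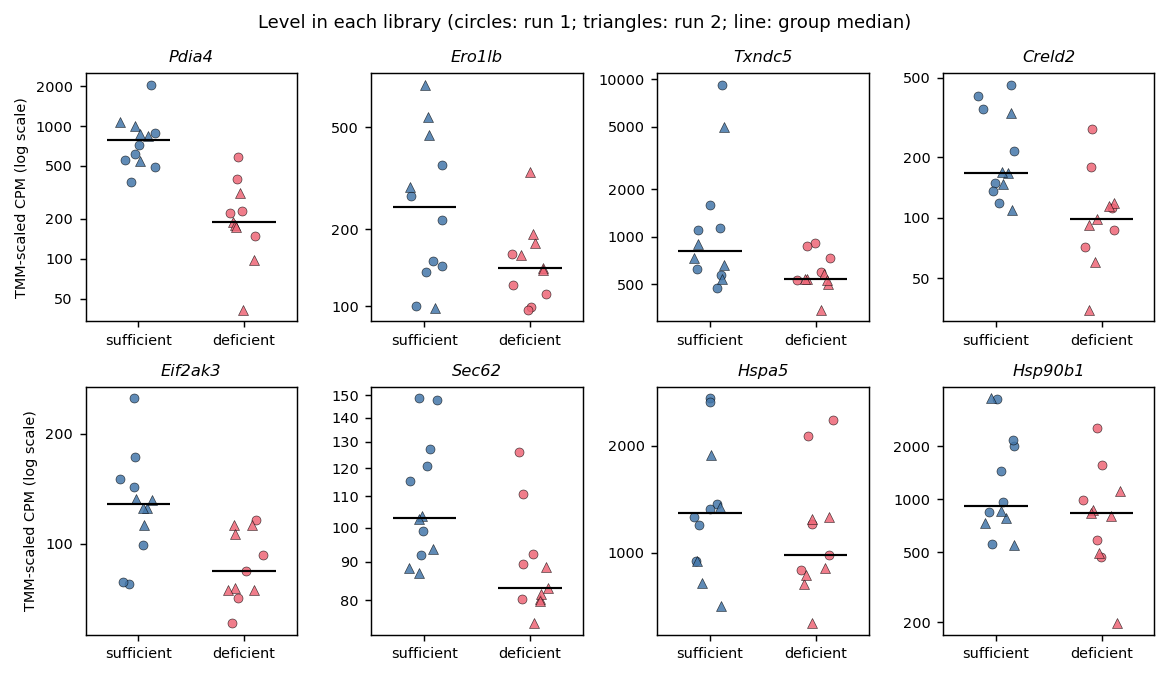
Level of 8 members in each library, in TMM-scaled CPM on a log axis: circles are run 1, triangles are run 2, and the line is the group median (12 sufficient, 11 deficient). Pdia4 nearly separates the groups, Txndc5 has 2 sufficient libraries far above the rest, and the medians of the groups are close for Hsp90b1 (913 and 835 CPM).

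Among the chaperones, Creld2 fell and the other 11 did not pass the test. Creld2 is an ER protein with disulfide-handling activity that is induced by ER stress. Its level ran from 110 CPM through a median of 168 to 462 in the sufficient libraries, and from 34.7 through 98.3 to 277 in the deficient libraries. Of the 11 deficient libraries 6 were below every sufficient library and 9 were below the sufficient median, while deficient 7 and deficient 9 were above it. The log2 fold change was -0.97 ± 0.29 (SE, edgeR adjusted p = 0.0195), with means of 231 ± 123 CPM (SD, n = 12) and 113 ± 65.9 (SD, n = 11).

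Hspa5, the central ER chaperone and a common readout of the unfolded protein response, ran from 708 CPM through a median of 1296 to 2734 in the sufficient libraries. In the deficient libraries it ran from 632 through 989 to 2367. Of the deficient libraries 1 was below every sufficient library and 2 sufficient libraries were above every deficient one, and the log2 fold change was -0.19 ± 0.22 (SE, edgeR adjusted p = 0.571). Hsp90b1, the ER member of the HSP90 family, ran from 551 through 913 to 3773 CPM and from 197 through 835 to 2552 CPM, with 3 deficient libraries below every sufficient one. Its log2 fold change of -0.66 ± 0.39 (SE, edgeR adjusted p = 0.225) was larger than that of Hspa5, with medians closer together than the means of 1535 ± 1157 (SD, n = 12) and 955 ± 644 (SD, n = 11). Uggt1, the glucosyltransferase that tags unfolded glycoproteins for another round of folding, ran from 182 through 261 to 341 CPM and from 146 through 196 to 390 CPM. It had a log2 fold change of -0.25 ± 0.15 (SE, edgeR adjusted p = 0.219). It passed only in run 2 alone (-0.51, edgeR adjusted p = 0.0401) and without deficient 9, of the alternatives tried.

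Neither lectin chaperone passed the test. Calr ran from 564 through 961 to 2682 CPM in the sufficient and from 538 through 921 to 1760 CPM in the deficient libraries, a log2 fold change of -0.20 ± 0.21 (SE, edgeR adjusted p = 0.533). Canx had a log2 fold change of -0.00 ± 0.11 (SE), with means of 678 ± 130 CPM (SD, n = 12) and 659 ± 144 (SD, n = 11). The BiP exchange factor Hyou1 (0.17 ± 0.23), the BiP co-chaperones Dnajb9 (0.14 ± 0.21), Dnajb11 (-0.22 ± 0.19) and Dnajc3 (-0.12 ± 0.24), and the stress-induced Sdf2l1 (-0.04 ± 0.36) and Manf (-0.01 ± 0.29) did not pass either, each value being a log2 fold change ± SE.

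Many ER chaperone genes carry an ER stress response element in their promoter, to which NF-Y and the ATF6 or XBP1 factors bind, and they are shown because some of these genes fell and others did not pass. The element was searched as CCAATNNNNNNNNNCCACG on both strands, in RefSeq promoters of GRCm38.p6 from 250 bases before to 50 after each start. Of 32851 promoters 39 held it (0.119%). Of the 56 members 47 had an entry, and 10 held the element: Calr, Canx, Creld2, Derl3, Dnajc3, Ero1lb, Hsp90b1, Hspa5, Pdia6 and Syvn1. Each stretch below gives the element in capitals with 10 bases on each side, read 5′ to 3′ on the strand that carries it.
Hspa5, chr2:34772015-34772053 (+): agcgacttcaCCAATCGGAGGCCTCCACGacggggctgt
Calr, chr8:84847065-84847103 (+): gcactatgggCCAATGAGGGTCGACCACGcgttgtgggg
Canx, chr11:50325790-50325828 (-): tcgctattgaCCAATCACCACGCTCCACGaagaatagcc
Creld2, chr15:88819510-88819548 (-): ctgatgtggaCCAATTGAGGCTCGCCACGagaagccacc
Ero1lb, chr13:12565672-12565710 (-): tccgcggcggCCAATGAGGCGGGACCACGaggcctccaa
Hsp90b1, chr10:86705628-86705666 (-): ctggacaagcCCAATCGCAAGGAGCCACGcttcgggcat
Hsp90b1, chr10:86705523-86705561 (+): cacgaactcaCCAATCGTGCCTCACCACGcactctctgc
Pdia6, chr12:17266481-17266519 (+): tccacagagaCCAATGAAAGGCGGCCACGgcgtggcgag
Dnajc3, chr14:118937817-118937855 (+): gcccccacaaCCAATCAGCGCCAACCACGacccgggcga
Syvn1, chr19:6046522-6046560 (+): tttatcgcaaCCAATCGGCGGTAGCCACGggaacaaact
Derl3, chr10:75893232-75893270 (-): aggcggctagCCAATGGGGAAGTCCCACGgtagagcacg

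Of the 10 members with the element, 2 fell (Creld2 and Ero1lb), with a median log2 fold change of -0.19. Of the 37 with an entry but no match, 4 fell, with a median of -0.03. Both counts stand beside the 11.7% of all genes that fell, and a link of the element to the group difference was not tested. The 9 members without an entry, which were not searched, were Hyou1, Manf, Derl1, Srp68, Sec61a1, Ssr2, Sec11c, Spcs3 and Atf6. The member that fell most, Pdia4, had no match of the searched letters, and no CCACG, in the 250 bases before its RefSeq start, while CCAAT occurred there 3 times over both strands. That RefSeq start lies upstream of the gene's bounds (chr6:47796141-47813430, minus strand). The search did not reach those bounds, so the bases just before them were not searched. The 250 bases of Pdia4 are set beside those of Hspa5, which did not pass the test. Both are read 5′ to 3′ on the gene's strand, and the capitals mark the element, which is found only in the latter.
Pdia4, chr6:47813513-47813762 (-): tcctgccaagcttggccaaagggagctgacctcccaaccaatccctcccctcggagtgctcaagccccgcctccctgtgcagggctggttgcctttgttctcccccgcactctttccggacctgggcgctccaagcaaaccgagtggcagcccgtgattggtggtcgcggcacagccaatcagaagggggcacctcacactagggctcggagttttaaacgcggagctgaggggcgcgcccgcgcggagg
Hspa5, chr2:34771840-34772089 (+): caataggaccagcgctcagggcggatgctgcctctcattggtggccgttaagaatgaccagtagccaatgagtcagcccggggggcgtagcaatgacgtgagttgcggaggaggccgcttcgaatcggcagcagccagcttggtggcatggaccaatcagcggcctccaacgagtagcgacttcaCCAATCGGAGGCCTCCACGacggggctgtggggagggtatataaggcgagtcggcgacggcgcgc
A match is a description of the letters, and no binding was measured.

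The core of another element, TGACGTGG, was found in 222 promoters (0.676%), among them those of Txndc5 and Txndc11, shown because Txndc5 fell and Txndc11 did not pass. The Txndc5 match began 138 bases before a RefSeq start that lies inside the gene's bounds (chr13:38500079-38528824, minus strand). The short form of the stress element, ATTGGNCCACG, was in 12 promoters (0.0365%), among them those of Dnajb11 and Herpud1, neither of which passed. Capitals mark the searched letters.
Txndc5, chr13:38528035-38528062 (-): gcctcgccgcTGACGTGGcgctagccgc
Txndc11, chr16:11134617-11134644 (-): gaagtgtggcTGACGTGGagagtccggg
Dnajb11, chr16:22857842-22857872 (+): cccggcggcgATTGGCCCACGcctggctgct
Herpud1, chr8:94386367-94386397 (+): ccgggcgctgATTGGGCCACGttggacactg

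None of the 10 members of ER-associated degradation passed the test, and their median log2 fold change was -0.04. Edem2, a mannosidase-family protein that marks glycoproteins for disposal, came closest. It ran from 49.6 CPM through a median of 90.1 to 234 in the sufficient libraries and from 43.9 through 65.4 to 140 in the deficient libraries, a log2 fold change of -0.54 ± 0.22 (SE, edgeR adjusted p = 0.0834). The lectin Os9 ran from 106 through 159 to 287 CPM and from 96.3 through 119 to 211 CPM (log2 fold change -0.37 ± 0.17, edgeR adjusted p = 0.12). Edem3, of the same family as Edem2, had the opposite sign, from 58.1 through 80.8 to 168 CPM and from 67.6 through 114 to 147 CPM (log2 fold change 0.33 ± 0.18, edgeR adjusted p = 0.2). Without sufficient 4, its highest sufficient library, Edem3 was the 1 member called higher (0.43, edgeR adjusted p = 0.04997). The ubiquitin ligase Syvn1 (-0.20 ± 0.13) and its partner Sel1l (-0.01 ± 0.30), the scaffold Herpud1 (0.35 ± 0.23), the channel proteins Derl1 (-0.14 ± 0.14), Derl2 (-0.02 ± 0.07) and Derl3 (-0.06 ± 0.35), and Edem1 (0.17 ± 0.23) likewise did not pass. Derl2 varied little between libraries, with means of 61.1 ± 7.15 CPM (SD, n = 12) and 59.4 ± 7.70 (SD, n = 11).

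On the route into the ER, Sec62 fell and no other member passed. Sec62 forms a channel partner that helps short precursors enter after translation. Its level ran from 87.0 CPM through a median of 103 to 149 in the sufficient libraries and from 74.5 through 83.2 to 126 in the deficient libraries. Of the 11 deficient libraries 6 were below every sufficient library, yet the shift was small, with a log2 fold change of -0.26 ± 0.09 (SE, edgeR adjusted p = 0.0392). Its call depended on single libraries, since it passed in 14 of the 23 fits that each left out 1 library, and it was lost when counts were scaled by library total alone (-0.18, edgeR adjusted p = 0.102). The other 8 translocon and TRAP genes had log2 fold changes from -0.06 (Ssr4) to 0.24 (Sec61g), 7 of the 8 above 0. Ssr2, a TRAP subunit, ran from 74.0 through 139 to 323 CPM and from 71.3 through 125 to 422 CPM (edgeR adjusted p = 0.469). Sec61g, the small channel subunit, was counted at a low level, from 1.72 through 4.31 to 12.5 CPM and from 2.09 through 3.69 to 14.3 CPM (edgeR adjusted p = 0.554).

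In the signal recognition particle, Srp14 ran from 73.0 CPM through a median of 97.7 to 177 in the sufficient libraries and from 59.3 through 73.3 to 153 in the deficient libraries. Its log2 fold change of -0.27 ± 0.11 (SE, edgeR adjusted p = 0.0738) was as large as that of Sec62 without passing, though DESeq2 called it (adjusted p = 0.0489). The receptor subunit Srpr ran from 116 through 148 to 309 CPM and from 116 through 148 to 275 CPM, and Srp68 from 74.7 through 111 to 177 CPM and from 87.0 through 116 to 173 CPM. Neither passed (edgeR adjusted p = 0.562 and 0.743), nor did Srp72, Srp9 or Srp54a. Srp54a has near-identical copies in the mouse genome that can share its reads, so its level of 1.16 to 9.89 CPM is uncertain.

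All 5 signal peptidase genes had negative log2 fold changes that did not pass, from -0.26 to -0.03. The catalytic subunit Sec11c ran from 116 CPM through a median of 247 to 397 in the sufficient and from 129 through 170 to 315 in the deficient libraries (edgeR adjusted p = 0.173). The accessory subunit Spcs1 ran from 62.2 through 109 to 202 CPM and from 56.5 through 82.1 to 143 CPM (edgeR adjusted p = 0.274). Spcs3 ran from 197 through 297 to 575 CPM and from 151 through 244 to 539 CPM (edgeR adjusted p = 0.719). For Spcs3 5 of the 11 deficient libraries were below every sufficient library, for Spcs1 2 were and for Sec11c 0 were.

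Of the 3 stress sensors, Eif2ak3 alone passed. It encodes PERK, the kinase that slows translation under ER stress. Its level ran from 77.4 CPM through a median of 128 to 250 in the sufficient libraries and from 60.6 through 84.3 to 116 in the deficient libraries. All 11 deficient libraries were below the sufficient median, and the log2 fold change was -0.57 ± 0.17 (SE, edgeR adjusted p = 0.0208). Atf6 ran from 103 through 254 to 446 CPM and from 103 through 169 to 436 CPM, with a log2 fold change of -0.28 ± 0.25 (SE, edgeR adjusted p = 0.425). Ern1, which encodes IRE1, ran from 8.41 through 27.5 to 49.6 CPM and from 12.6 through 28.2 to 67.1 CPM, with a log2 fold change of 0.44 ± 0.33 (SE, edgeR adjusted p = 0.357). The signs of the 3 sensors thus differed.

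The factors that act after the sensors showed no called difference. Atf4, the transcription factor translated when PERK is active, ran from 157 CPM through 285 to 553 in the sufficient and from 154 through 207 to 443 in the deficient libraries (log2 fold change -0.23 ± 0.20, edgeR adjusted p = 0.424). Since it is raised mainly at translation, its RNA level does not give its activity. Ddit3, which encodes the death-linked factor CHOP, was low in both groups, from 5.71 through 12.7 to 16.6 CPM and from 5.56 through 9.25 to 23.7 CPM (-0.14 ± 0.23, edgeR adjusted p = 0.697). Trib3, a pseudokinase induced by ATF4, ran from 1.24 through 2.98 to 19.4 CPM and from 0.52 through 3.31 to 64.5 CPM (0.78 ± 0.62, edgeR adjusted p = 0.381), its highest value being in deficient 9. Ppp1r15a, the phosphatase subunit that restores translation, had a log2 fold change of 0.24 ± 0.27 (SE, edgeR adjusted p = 0.555).

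The rest of the pathway was read in 6 lists that hold none of the 56 members. Their counts stand beside the 10.6% of all genes that rose and the 11.7% that fell. Of 17 other regulators of the unfolded protein response 1 fell and 0 rose: Tmbim6, an ER membrane protein that restrains cell death, at a log2 fold change of -0.50 (edgeR adjusted p = 0.00764). Xbp1, the factor activated by IRE1, had a median of 174.5 CPM in the sufficient and 135 in the deficient libraries and did not pass (-0.60 ± 0.36, edgeR adjusted p = 0.24). Of 17 oligosaccharyltransferase and glucosidase genes, which add and trim sugars on new chains, 0 passed, with Ganab, Tusc3 and Ost4 closest (edgeR adjusted p = 0.0851, 0.112 and 0.135). Of those 17, 1 was higher and 2 were lower at an unadjusted p under 0.05. Of 13 other ER-associated degradation genes 2 fell, Rnf139 (-0.48) and Aup1 (-0.48). Of 22 genes for carriers between ER and Golgi 2 rose, Sar1b (0.30) and Sec24a (0.49), and of 17 cytosolic chaperones 1 rose, Hspa4 (0.22).

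Of 19 target genes of ATF4, which serve amino acid supply and the stress response, 2 rose and 0 fell, and 18 had a positive log2 fold change, with a list median of 0.43. The count that rose is near the 10.6% of all genes that rose, and 5417 of the 11020 genes tested had a positive log2 fold change. Stc2, a secreted glycoprotein, was at or under 1.12 CPM in every sufficient library and had a median of 4.94 CPM and a highest value of 83.1 CPM in the deficient libraries (edgeR adjusted p = 0.00125). Phgdh, which opens the serine synthesis pathway, had medians of 154 and 223 CPM (log2 fold change 0.59, edgeR adjusted p = 0.026). The next by p, Cth, did not pass (edgeR adjusted p = 0.058). The summed level of the list ran from 970 to 2312 CPM in the sufficient and from 1108 to 4986 CPM in the deficient libraries, the highest sum being in deficient 9.

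Marker lists of several cell types are set beside the 11.7% of all genes that fell, and the B cell list held the highest share of falling genes. Of 11 measured plasma cell markers 2 fell, Sdc1 (log2 fold change -2.01, edgeR adjusted p = 0.0268) and Creld2, itself a member. The list summed to between 1421 and 6449 CPM in the sufficient and between 1740 and 4807 CPM in the deficient libraries. Prdm1 and Irf4, both on the plasma cell list, did not pass and were above 0 in every library. Irf4 was highest in deficient 1 (728 CPM), where Prdm1 was at 19.4 CPM, so its level alone does not mark plasma cells here. Among the B cell markers, the receptor subunits Cd79a (log2 fold change -0.58) and Cd79b (-0.53) and the receptor inhibitor Cd22 (-1.59) fell, while Ms4a1, Blnk, Ebf1 and Pax5 did not pass (edgeR adjusted p from 0.426 to 0.957). Of 11 monocyte and macrophage markers 2 fell, Itgam and Lyz2, all 11 had negative log2 fold changes, and sums ran from 433 to 3744 CPM and from 437 to 1093 CPM. Of 8 T cell markers 1 fell, Cd2, with sums from 234 to 868 CPM and from 205 to 892 CPM, mostly from Lck, and Thy1 and Cd8b1 were at 0 in at least 1 library of each group. Of 3 neutrophil and 5 erythroid markers 0 passed, with summed levels up to 143 and 71.0 CPM. The part of these cells in the members' differences was not tested.

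Levels varied widely between libraries of a group, and many members were high in the same few libraries. Together they took 1.14% to 3.66% of the counts in the sufficient libraries (median 1.55%) and 1.00% to 2.51% in the deficient libraries (median 1.39%). Sufficient 4 was the highest library of its group for 32 of the 56 members. In run 2, sufficient 11 was the highest of the 5 sufficient libraries for 43 of 56. Among the deficient libraries, deficient 9 was highest for 27 members and deficient 7 for 22. Xbp1 was high in the same libraries, at 890 CPM in sufficient 4, 598 in deficient 9, 577 in sufficient 11 and 324 in deficient 7, against medians of 174.5 and 135. It was not high in these alone, since sufficient 1 (457 CPM) and sufficient 2 (364) lay above deficient 7.

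The 4 highest libraries of Pdia4 and Ero1lb overlapped only in part with those of Hspa5, sharing 2 and 1 of them. Other members did so too, with 1 shared for Txndc5 and 0 for Syvn1. The 4 highest libraries for Hspa5 were sufficient 4 and 7 and deficient 7 and 9. Those for Pdia4 were sufficient 7, 10, 8 and 4, and deficient 7 and 9, at 587 and 402 CPM, were its highest deficient libraries while lying below the sufficient median of 778. For Hspa5 the same pair, at 2367 and 2141 CPM, lay above every sufficient library but 2. Without sufficient 4, sufficient 11 and deficient 9, the 3 libraries with the most Prdm1, Pdia4 (log2 fold change -1.91, edgeR adjusted p = 0.0029) and Ero1lb (-1.08, edgeR adjusted p = 0.00497) still passed. In that fit Srp14 passed too (-0.30, edgeR adjusted p = 0.0192), while Txndc5 (-0.44, edgeR adjusted p = 0.117), Creld2 (-0.76, edgeR adjusted p = 0.0694), Eif2ak3 (-0.52, edgeR adjusted p = 0.064) and Sec62 (-0.25, edgeR adjusted p = 0.0799) did not. Without the 3 libraries that held both Xist and Ddx3y, Pdia4 (-1.76, edgeR adjusted p = 0.00578) and Ero1lb (-1.10, edgeR adjusted p = 0.0073) were the only members that passed.

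**Figure D3:**
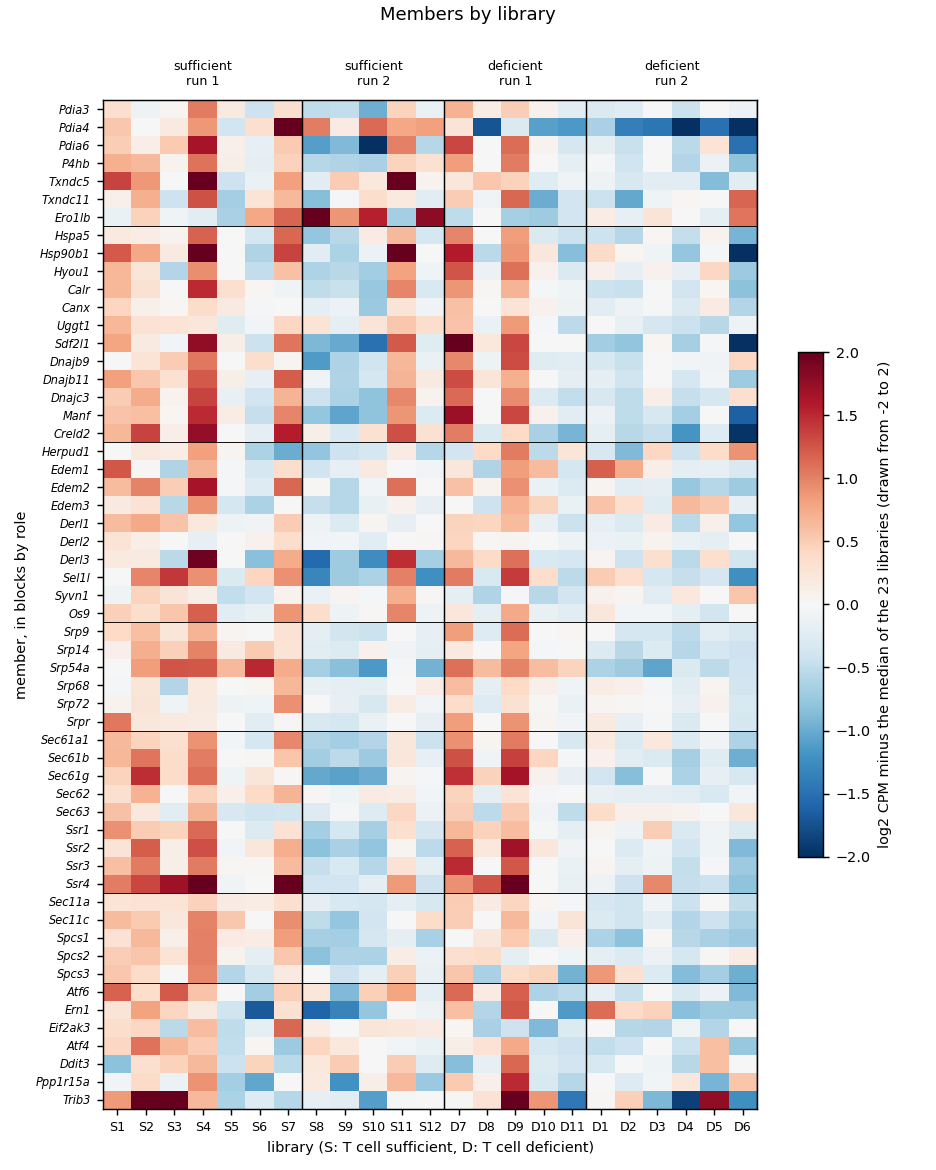
Level of each of the 56 members (rows, in blocks by role) in each of the 23 libraries (columns, S for T cell sufficient and D for T cell deficient, by run), as log2 CPM with a pseudocount of 0.5 minus the gene's median over all libraries, drawn from -2 to 2. The columns of S4, S11, D7 and D9 are red across most roles, while the Pdia4 row is blue in most deficient libraries.

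More members differed between the runs than between the groups. At a given group 30 of the 56 members were lower in run 2 and 1 was higher (edgeR adjusted p under 0.05), where 17.7% of all genes were lower and 18.6% higher in run 2. The members' median log2 difference, run 2 over run 1, was -0.53, against 0.02 for all genes. By role, 8 of 9 translocon and TRAP genes, 4 of 5 signal peptidase genes, 4 of 6 signal recognition particle genes and 7 of 12 chaperones were lower in run 2, but 3 of 10 degradation genes and 1 of 7 stress genes. Ero1lb was the 1 member higher in run 2 (log2 difference 0.92, edgeR adjusted p = 0.00809), with sufficient means of 196 ± 90.3 CPM (SD, n = 7) in run 1 and 428 ± 243 (SD, n = 5) in run 2.

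Sec11a, a catalytic subunit of signal peptidase, had sufficient libraries that did not overlap between runs, from 89.1 to 111 CPM in run 1 and from 62.7 to 70.3 in run 2. Its deficient libraries ran from 77.5 to 114 CPM in run 1 and from 57.6 to 79.9 in run 2, and the log2 difference was -0.54 (edgeR adjusted p = 7.67e-06). The TRAP subunit Ssr4 fell from a mean of 192.5 ± 137 CPM (SD, n = 12) in run 1 to 68.8 ± 32.9 (SD, n = 11) in run 2, a log2 difference of -1.48 (edgeR adjusted p = 0.00238). The channel subunit Sec61b fell from 129 ± 48.2 CPM (SD, n = 12) to 64.6 ± 16.6 (SD, n = 11) (edgeR adjusted p = 0.000308).

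Other lists had high shares lower in run 2 as well, with 14 of 17 oligosaccharyltransferase and glucosidase genes and 13 of 17 cytosolic chaperones. The 30 members lower in run 2 had a median merged exon length of 3414 bases and the other 25 with a length had one of 5141 bases. Of 11 plasma cell markers 1 passed as lower in run 2, but all 11 had a negative run difference, with a median log2 difference of -0.62. Of the genes named in that list, 3 are members. The part of length, of cell makeup and of the library steps in the run difference was not tested. Both groups were present in both runs, and no group difference was shown to depend on the run: 0 of the 56 members and 0% of the 11020 genes passed the test of the interaction in edgeR, in which 1 member was under an unadjusted p of 0.05. DESeq2 and limma-voom likewise called 0 members, with 1 under an unadjusted p of 0.05 in each.

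**Figure D4:**
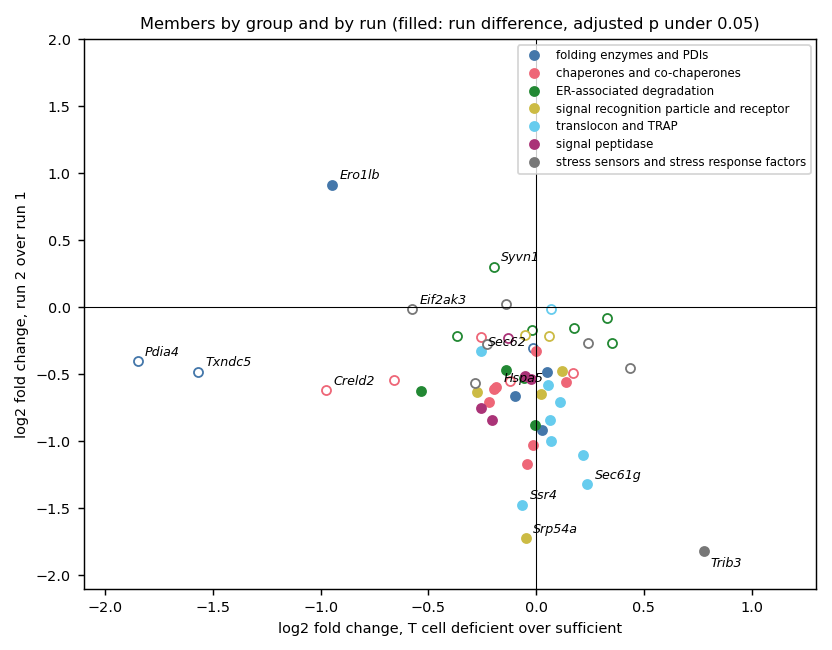
Each of the 56 members by its group difference (x axis, log2 fold change of T cell deficient over sufficient) and its run difference (y axis, log2 fold change of run 2 over run 1), colored by role, with filled points for a run difference at an adjusted p under 0.05. Most points lie near 0 on the x axis and below 0 on the y axis, while Pdia4 and Txndc5 lie far left and Ero1lb is the 1 filled point above 0.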

How the data were processed

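RNA came from purified spleen B lymphoma cells and libraries from a TruSeq kit, per the labels' protocols. The authors deposited raw read counts per gene for 23 libraries, with the log2 fold changes, log2 CPM averages and p-values of their own comparison. Every deposited gene is above 1 CPM in at least 7 libraries. Builds mm10 and GRCm38 and the tool limma are named per the submitters' processing notes. The sources used here name no aligner, counter, annotation or strandedness, so overlapping genes may share counts. Columns were matched to samples by the number in the description, and 1 column (number 81) has another suffix than its label. A repeat library of 1 lymphoma was not analysed here.

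Genes were filtered with filterByExpr by group, which removed 120 of 11140 and left 11020. Counts were scaled by TMM and tested with edgeR 4.0.16 in R 4.3.3 (robust quasi-likelihood, terms run and group), with Benjamini-Hochberg adjustment over all genes tested and a threshold of 0.05. SE was the absolute log2 fold change over the root of F. Alternatives were other scaling, no filter, DESeq2 1.42.0, limma-voom (limma 3.58.1), no run term, each run alone, each library left out and a replicate block. Leaving out 3 libraries with high Prdm1, or 3 with Xist and Ddx3y, was added after seeing the data. The scripts were tested on simulated data. Coordinates and merged exon lengths are from GENCODE M21 and promoters from RefSeq (GRCm38.p6). The named genes are the 3 with the smallest p in each role and 8 set by name (Hspa5, Hsp90b1, Calr, Atf4, Ddit3, Ern1, Eif2ak3 and Atf6), with up to 3 of each other list and Xbp1. Genes named for the run difference or for single libraries were chosen after their values were seen. The members, the lists and the tests were chosen with earlier results of these data known. One B cell marker is not reported here.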

Additional observations from a re-analysis of the deposited data

How the results depend on the processing

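Under 34 alternatives Pdia4 passed in 33 (not in run 1 alone), Ero1lb in 31, Creld2 and Eif2ak3 in 30 each, Txndc5 in 26 and Sec62 in 19, and none of these 6 changed sign. Of the 50 members that did not pass, 24 changed sign under at least 1 alternative. The count of members lower was 0 in run 1 alone, 2 in run 2 alone, 3 without the 3 libraries highest in Prdm1 and 2 without the 3 that held Xist and Ddx3y. Over all genes the count called was 0 in run 1 alone, 1359 in run 2 alone and 1470 without the 3 libraries that held Xist and Ddx3y. Leaving out 1 library at a time gave 4 to 9 members lower and 0 to 1 higher. The 9 were reached without deficient 9, and the 4 without sufficient 4 or sufficient 11. The replicate block, over the 11 replicate numbers that both groups share, gave 5 members lower and 1824 genes called in all, with Txndc5 lost. Correlations of same-numbered libraries ran from -0.25 to 0.23, with 4 of 11 over 0.1. Differently numbered libraries were not correlated for comparison, so these values cannot show whether the numbers pair the samples. In run 1 alone edgeR had 1832 genes, and 3 members lower, at an unadjusted p under 0.05. Each run alone holds fewer libraries, 12 in run 1 and 11 in run 2. Why the counts called in these runs differed was not tested. Members counted at the lowest levels, such as Trib3, Sec61g and Srp54a, carry more counting error than the abundant ones.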
